A study of Danio rerio with 12 samples.

Results

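The oxygen carrier of the larval red blood cell was followed here in the RNA of whole zebrafish larvae with and without a functional elmo2 gene. The set comprised 9 genes chosen by name, namely the larval alpha globins hbae1.3, hbae3 and hbae5, the larval beta globins hbbe1.1, hbbe2 and hbbe3, the heme enzyme gene alas2, the anion exchanger gene slc4a1a and the transcription factor gene gata1a. Of the 32520 gene identifiers in the deposited tables, 8 belonged to the set. Of the 9 names, 6 were found as written, slc4a1a was found only under the capitalised name SLC4A1, which 2 identifiers share, and hbbe1.1 and hbbe2 had no identifier under their own names. The name HBE1, a human-style name for an embryonic beta globin, is carried by 7 identifiers, and the RefSeq gene table (GRCz12tu assembly) lists 7 beta globin genes other than hbbe3. The tables used here do not pair these, so the HBE1 identifiers were described as beta globins of unresolved identity and were not counted in the set.

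In zebrafish, as in other vertebrates, embryos and larvae use globin genes that differ from those of the adult, and hemoglobin is assembled from pairs of alpha and beta globin chains, each holding a heme group with an iron atom. Gata1 switches on the genes of the red cell programme, Alas2 makes the first committed intermediate of heme in red cells, and Slc4a1, known as band 3, exchanges chloride and bicarbonate across the red cell membrane. In the zebrafish, loss of gata1a, alas2 or slc4a1a function is known to cause anemia, and the alpha and beta globin genes lie interleaved in a large and a small cluster. In the RefSeq table, hbae1.3, hbae3 and hbbe1.1 were among 13 neighbouring globin genes, and hbae5, hbbe2 and hbbe3 were among the 4 genes of the other cluster.

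Samples were pools of 30 snap-frozen whole larvae at 120 hours post fertilization, with 6 pools of elmo2-/- and 6 of elmo2+/+ larvae. The line carries a CRISPR/Cas9 frameshift deletion in elmo2 that is predicted to truncate the protein and was made in the endothelial reporter line Tg(fli1:EGFP), so that both genotypes share the reporter background. It is a constitutive mutation in all tissues of the larva, and only 1 mutant line was sampled. The labels do not say whether the pools came from separate clutches, so the p-values measure the spread between these pools. Each sample held between 20116203 and 20939679 estimated counts, and 0 pairs of samples had identical counts. By the labels, elmo2+/+ replicates 1 to 6 are libraries 1 to 6, elmo2-/- replicates 1 to 4 are libraries 13 to 16 and elmo2-/- replicates 5 and 6 are libraries 7 and 8. An effect of the library number, which is not stated to mark a batch, and one of the genotype cannot be told apart. The targeted gene elmo2 (ENSDARG00000063527) was at 31.4 to 51.6 CPM in elmo2-/- and at 56.3 to 92.4 CPM in elmo2+/+, without overlap (exact two-sided permutation test, p = 0.00216, the lowest p possible with 6 samples per genotype).

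Among the tested genes of the set, hbae1.3, hbae3, hbae5, alas2, gata1a and 1 of the SLC4A1 identifiers had higher mean levels in elmo2-/- than in elmo2+/+ larvae, by 1.22-fold to 1.64-fold, but the genotypes overlapped for every tested gene and none passed the test across all genes. Of the 8 identifiers, 7 passed the filter on low counts (filterByExpr of edgeR) and hbbe3 did not. After Benjamini-Hochberg adjustment of the p-values of edgeR's quasi-likelihood test over 22259 genes, 0 of the 7 were called at an adjusted p under 0.05, each having an adjusted p of 0.9997, and 0% of all genes were called. The targeted gene elmo2 was not called in this test either, at a log2 fold change of -0.93 (standard error 0.15) and an adjusted p of 0.642. With DESeq2 3 genes and with limma on log2(TPM + 1) 1 gene were called over all genes, 0 of them in the set. The gene called by limma was elmo2, which DESeq2 also called. Without adjustment, 1 of the 7, alas2, had a p under 0.05, where 4.68% of all genes did in either direction and 2.55% with a higher level in elmo2-/-. A higher fitted level in elmo2-/- was found for 6 of the 7, against 49.8% of all genes, and their median log2 fold change was 0.33, against -0.00061 over all genes. In 0 of the 7 were the CPM values of the genotypes free of overlap, which was the case for 0.198% of all genes. The names were chosen with earlier results of these data known, so these counts are descriptions. Most genes of the set were also high and low in the same pools, so the 7 are not independent outcomes. In RNA of whole larvae, a different number of red cells and a different amount of RNA per red cell cannot be told apart.

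**Figure D1:**
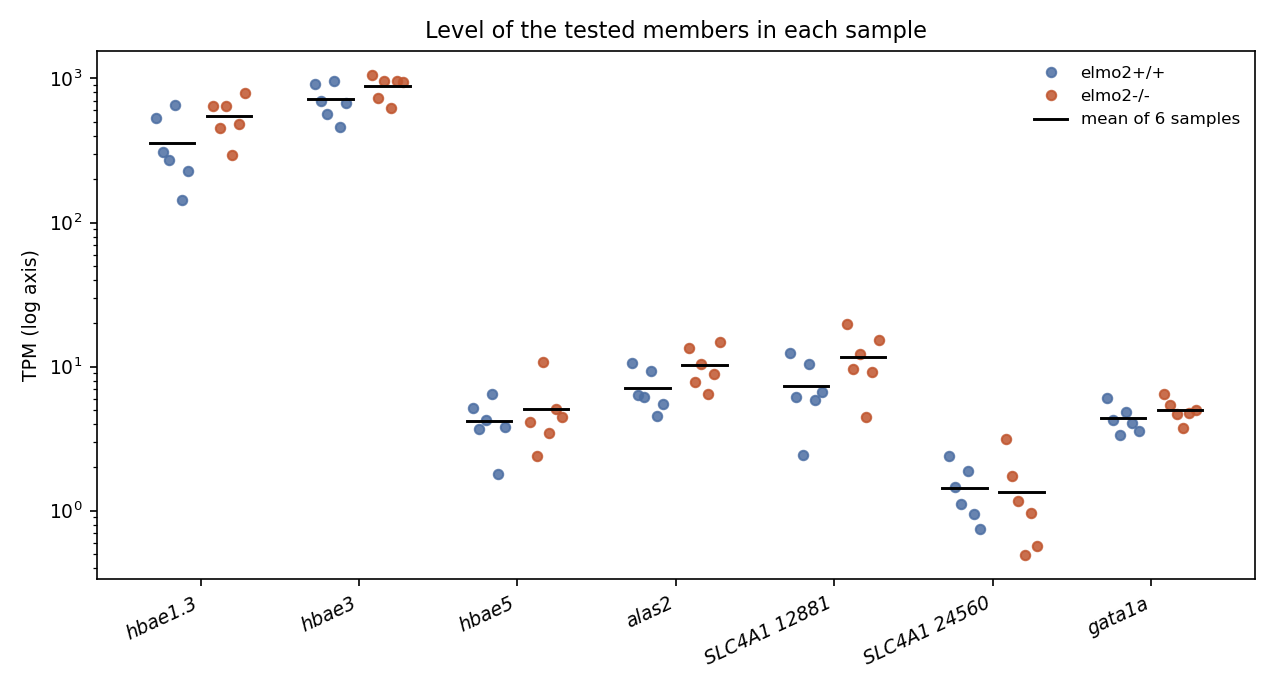
Level of the 7 tested identifiers in each sample in TPM (log axis), with elmo2+/+ in blue, elmo2-/- in orange and black lines at the means of 6 samples. Numbers after SLC4A1 are the ends of the Ensembl identifiers. The alpha globins hbae3 and hbae1.3 stand far above the other genes, and the genotypes overlap for each gene.

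The alpha globin hbae3 (ENSDARG00000079305) was the most abundant gene of the set. In TPM, a unit scaled for transcript length that allows genes to be compared within a sample, it had 882 ± 166 in elmo2-/- and 716 ± 194 in elmo2+/+ (n = 6 each, SD). It exceeded hbae1.3 in each of the 12 samples, at a ratio of 1.19 to 3.25. In CPM, the counts relative to the library size after TMM scaling, which were used to compare samples, hbae3 was at 216, 307 and 336 (lowest, median and highest) in elmo2-/- and at 150, 217 and 334 in elmo2+/+. The highest elmo2+/+ pool, replicate 4, thus reached the level of the highest elmo2-/- pools, while 3 of the 6 elmo2+/+ pools lay below the lowest elmo2-/- pool. The log2 fold change was 0.33 with a standard error of 0.18 (exact two-sided permutation test of the CPM, p = 0.115, not adjusted).

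For hbae1.3 (ENSDARG00000089124) the spread between pools was wider. Its CPM in elmo2-/- was 92.5 at the lowest, 155 at the median and 249 at the highest, and in elmo2+/+ it was 42.1, 82.6 and 207. All 6 elmo2-/- pools lay above the elmo2+/+ median, and 4 elmo2+/+ pools lay below every elmo2-/- pool, but elmo2+/+ replicates 1 and 4 had 141 and 207 CPM, within the elmo2-/- range. Of the 4 low pools, elmo2+/+ replicates 5 and 6 had a ratio of hbae1.2, an alpha globin of the same cluster, to hbae1.3 above 1. It was 1.92 and 1.64 (in TPM), unlike in all other pools. Their hbae1.2, at 78.9 and 109 CPM, lay within the elmo2-/- range of 58.8 to 150 CPM. The low hbae1.3 of these pools thus came with a different split between the genes, whose cause was not tested. In hbae1.3, the elmo2+/+ pools differed among themselves by 4.92-fold from lowest to highest, more than the genotype means of 164 ± 56.3 and 104 ± 60.1 CPM (SD, n = 6 each) did. For hbae1.3 the log2 fold change was 0.66 (standard error 0.34, exact two-sided permutation p = 0.0996). Without elmo2+/+ replicate 4 it was 0.98, and without elmo2+/+ replicate 5, the pool with the least hbae1.3, it was 0.50.

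The alpha globin hbae5 (ENSDARG00000045142), from the small cluster, was near the level of gata1a, at 5.04 ± 2.95 TPM in elmo2-/- and 4.20 ± 1.57 TPM in elmo2+/+ (n = 6 each, SD). It stood on 12 to 74.0 estimated counts per sample. Its CPM was 0.770, 1.39 and 3.79 in elmo2-/- and 0.591, 1.35 and 2.31 in elmo2+/+, with nearly equal medians. A single pool, elmo2-/- replicate 3, lay above all others. In the fit it had a log2 fold change of 0.33 (standard error 0.37, exact two-sided permutation p = 0.576), which was -0.071 without that pool.

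The beta globin hbbe3 (ENSDARG00000038147), the neighbour of hbae4 and hbbe2 in the small cluster, was close to undetected. Its estimated counts were 1, 2, 2, 1, 2 and 1 in elmo2-/- replicates 1 to 6, and 1 in elmo2+/+ replicate 4 with 0 in the other 5. Every library was thus under a floor of 3 counts, and no fold change was computed. An exact two-sided permutation test of these CPM values gave p = 0.00433, not adjusted, on a difference of at most 2 reads per library. Because all counts lie under the floor, no direction was read from them.

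Beta globin RNA was carried almost wholly by 4 of the 7 HBE1 identifiers, which were added after the data were seen. The most abundant, ENSDARG00000113599, had 1167 ± 218 TPM in elmo2-/- and 961 ± 198 TPM in elmo2+/+ (n = 6 each, SD). In elmo2+/+ ENSDARG00000045143 came next, at 279 ± 88.3 TPM, while in elmo2-/- its 321 ± 57.7 TPM did not differ beyond the spread from the 328 ± 151 TPM of ENSDARG00000087390. The other 3 identifiers lay at or below 0.537 TPM in every sample and were not tested.

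Estimated counts of ENSDARG00000113599, ENSDARG00000115405 and ENSDARG00000087390 were not whole numbers, the last being at 886.173 in elmo2-/- replicate 4. Whether reads were divided between these identifiers was not tested, so their single values are uncertain. The HBE1 identifier with the widest separation was ENSDARG00000087390. Its CPM was 44.8, 99.8 and 192 in elmo2-/- and 24.9, 40.8 and 93.1 in elmo2+/+, so that 4 elmo2-/- pools lay above all elmo2+/+ pools and 4 elmo2+/+ pools lay below all elmo2-/- pools. The log2 fold change was 1.01 (standard error 0.36, exact two-sided permutation p = 0.0303), and for ENSDARG00000115405 it was 0.64 (standard error 0.24, exact two-sided permutation p = 0.0498). After Benjamini-Hochberg adjustment over all genes, edgeR gave both an adjusted p of 0.9997, as it did for ENSDARG00000113599 and ENSDARG00000045143, which had log2 fold changes of 0.31 and 0.24. The globins hbae1.1, hbae1.2 and hbae4, which belong to the same clusters, had log2 fold changes of 0.29, 0.24 and 0.68 (standard errors 0.19, 0.24 and 0.32). In the list of other globins, which also holds globins outside red cells, 6 genes were tested and 0 were called or had an unadjusted p under 0.05, 5 had higher and 1 lower fitted levels, and the median log2 fold change was 0.19. The lower one was mb, the myoglobin gene of muscle, at -0.17 (standard error 0.13), named after its values were seen.

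**Figure D2:**
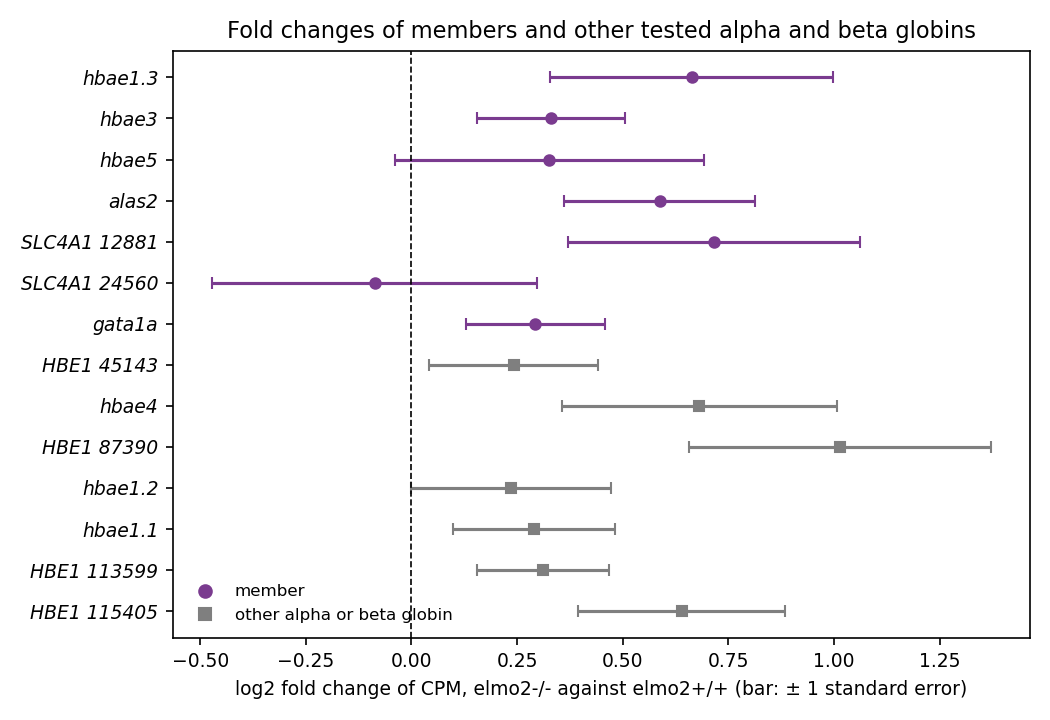
Log2 fold change of CPM in elmo2-/- against elmo2+/+ for the 7 tested identifiers of the set (purple circles) and 7 other tested alpha and beta globins (grey squares), with bars of 1 standard error on either side and a dashed line at 0. Numbers after SLC4A1 and HBE1 are the ends of the Ensembl identifiers. All points but SLC4A1 ENSDARG00000024560 lie right of 0, from 0.24 to 1.01.

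Summed over the 17 alpha and beta globin identifiers (9 alpha and 8 beta), globin RNA was 3999 ± 910 TPM in elmo2-/- and 3062 ± 879 TPM in elmo2+/+ (n = 6 each, SD), a ratio of 1.31. It ranged from 2570 to 5028 TPM in elmo2-/- and from 2022 to 4315 TPM in elmo2+/+, so that 3 elmo2-/- pools exceeded every elmo2+/+ pool, and the difference of the means was close to 1 SD. Globins made up 0.202% to 0.503% of all TPM in a sample. Alpha and beta globin RNA kept nearly the same proportion, with an alpha to beta ratio of 0.907 ± 0.0434 in elmo2-/- and 0.925 ± 0.115 in elmo2+/+. The ratios of the genotypes overlapped, from 0.848 to 0.979 and from 0.749 to 1.09.

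Within the alpha globins, hbae3 made up 47.0% ± 4.47 of the TPM in elmo2-/- and 49.1% ± 2.85 in elmo2+/+, and hbae1.3 made up 28.6% ± 3.27 and 22.9% ± 6.12 (SD, n = 6 each). The lower share of hbae1.3 in elmo2+/+ came with a different split between hbae1.2 and hbae1.3 in 2 pools. The ratio of hbae1.2 to hbae1.3 lay between 0.517 and 0.678 in the 6 elmo2-/- pools and between 0.578 and 0.679 in elmo2+/+ replicates 1 to 4, but was 1.92 and 1.64 in elmo2+/+ replicates 5 and 6. The submitters' processing notes name kallisto, which can divide reads between transcripts alike in sequence. Estimated counts of hbae1.2 and hbae1.3 were not whole numbers, at 1601.61 and 854.066 in elmo2+/+ replicate 5. If reads were divided between them, their single values are less certain than their sum. Counts of the HBE1 identifiers ENSDARG00000087390, ENSDARG00000113599 and ENSDARG00000115405 were not whole either, and the same limit applies to their shares. The sequences of these globins were not compared, and the cause of the split between hbae1.2 and hbae1.3 was not tested. Among the beta globins, ENSDARG00000113599 made up 56.1% ± 2.43 in elmo2-/- and 61.4% ± 4.34 in elmo2+/+, and ENSDARG00000087390 made up 15.02% ± 4.19 and 9.89% ± 2.55. The adult-type alpha globins hbaa1, hbaa2 and si:ch211-5k11.8 (hbaa1.2 among its RefSeq synonyms) were near 0, at up to 0.109% of the alpha globin TPM in any sample. Their summed share was 0.0169% ± 0.0111 in elmo2-/- and 0.0605% ± 0.0352 in elmo2+/+ (n = 6 each, SD). The mean share of hbaa2 alone went the other way, at 0.0041% and 0.0019%. Estimated counts of hbaa1 were 0 to 3 in elmo2-/- and 1 to 5 in elmo2+/+ (exact two-sided permutation p = 0.0606, not adjusted). Those of si:ch211-5k11.8 were 0 to 1 and 0 to 5 (p = 0.0476 in the same exact test), and those of hbaa2 0 to 2 and 0 to 1 (p = 0.727). These counts lie near or under the floor of 3, so no direction was read from them.

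**Figure D3:**
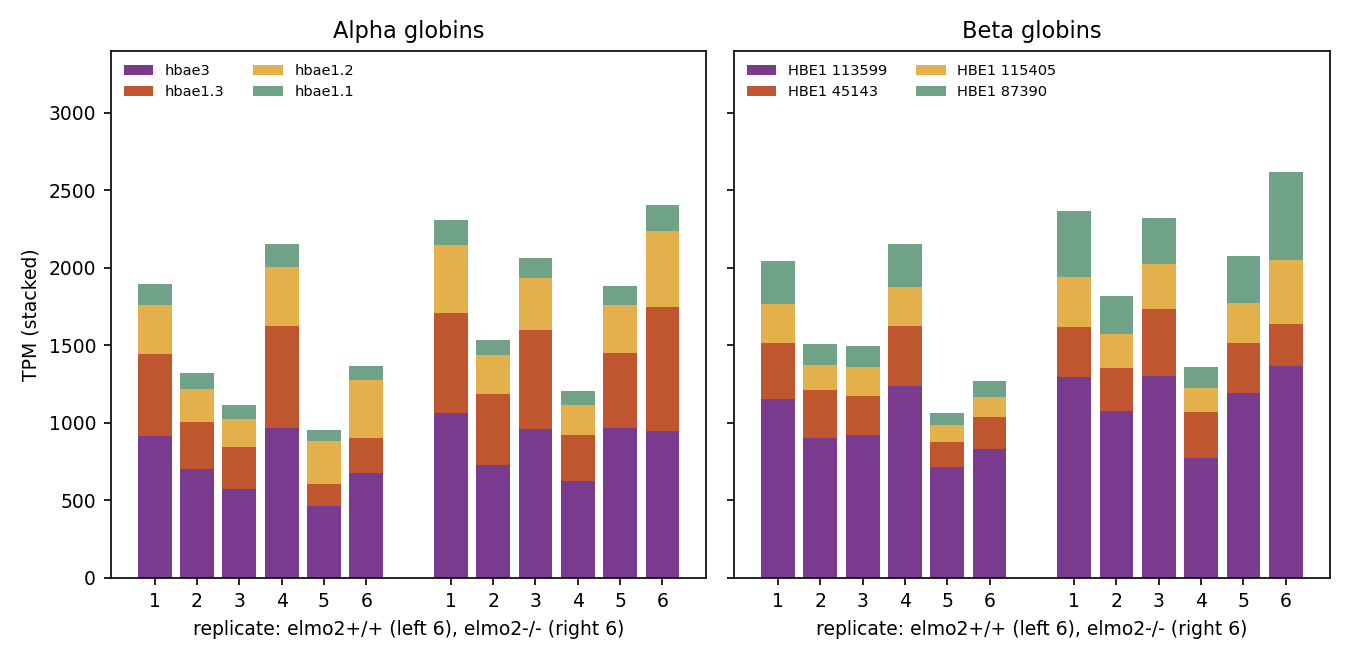
Stacked TPM of the 4 most abundant alpha globins (left) and of the 4 most abundant beta globin identifiers (right) in each sample, with elmo2+/+ replicates 1 to 6 on the left of each panel and elmo2-/- replicates 1 to 6 on the right. Alpha and beta stacks are of like height within a sample, the stacks of elmo2+/+ replicate 5 are the lowest, and hbae1.2 exceeds hbae1.3 in elmo2+/+ replicates 5 and 6.

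The heme enzyme gene alas2 (ENSDARG00000038643) had the smallest p of edgeR's test among the 7 tested identifiers. Its CPM was 13.9, 20.2 and 31.3 in elmo2-/- and 8.91, 12.1 and 19.8 in elmo2+/+, with means of 20.8 ± 6.48 and 13.8 ± 4.47 (SD, n = 6 each). The elmo2-/- replicates 1, 3 and 6 exceeded every elmo2+/+ pool, and 4 elmo2+/+ pools lay below every elmo2-/- pool. The log2 fold change was 0.59 with a standard error of 0.23, an unadjusted p of 0.0213 and an adjusted p of 0.9997 in edgeR's quasi-likelihood test. The exact two-sided permutation test gave p = 0.0519, so that the gene did not pass 0.05 in the test of single values. In TPM, alas2 lay at 10.3 ± 3.22 in elmo2-/- and 7.07 ± 2.35 in elmo2+/+, far below hbae3 and hbae1.3. Its means were above those of hbae5, but in elmo2-/- replicate 3 hbae5 was at 10.8 TPM and alas2 at 10.4 TPM.

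The name SLC4A1, under which slc4a1a was looked for, covered 2 identifiers that behaved differently. The RefSeq table names slc4a1a and slc4a1b but does not say which identifier is which. ENSDARG00000012881 had the larger share, with 11.75 ± 5.28 TPM in elmo2-/- and 7.35 ± 3.58 TPM in elmo2+/+ (n = 6 each, SD), a level that did not differ from that of alas2 beyond the spread. Its CPM was 13.4, 31.6 and 49.0 in elmo2-/- and 6.78, 17.5 and 30.9 in elmo2+/+. The elmo2-/- replicates 1, 3 and 6 lay above all elmo2+/+ pools, whereas elmo2-/- replicate 4 lay below all elmo2+/+ pools but 1. This amounted to a log2 fold change of 0.72 (standard error 0.35, exact two-sided permutation p = 0.0887).

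The other identifier, ENSDARG00000024560, was at 1.34 ± 0.986 TPM in elmo2-/- and 1.43 ± 0.624 TPM in elmo2+/+ (n = 6 each, SD). Its CPM was 1.21, 2.59 and 6.58 in elmo2-/- and 1.76, 2.90 and 5.04 in elmo2+/+, with the highest and the lowest pool both elmo2-/-. The log2 fold change was -0.087 (standard error 0.38, exact two-sided permutation p = 0.848), and its sign turned when single pools were left out.

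For gata1a (ENSDARG00000013477), which encodes the transcription factor that directs red cell differentiation, the pools varied less than for most genes of the set. Its CPM was 2.68, 3.86 and 4.66 in elmo2-/- and 2.26, 2.77 and 3.97 in elmo2+/+. The coefficient of variation was 18.4% in elmo2-/- and 22.2% in elmo2+/+, against 34.2% and 57.9% for hbae1.3 and 18.2% and 28.5% for hbae3. With means of 3.74 ± 0.687 and 3.05 ± 0.679 CPM (SD, n = 6 each), 5 elmo2-/- pools lay above the elmo2+/+ median. Between genotypes, the log2 fold change was 0.29 (standard error 0.16, exact two-sided permutation p = 0.113). In TPM, gata1a was at 5.03 ± 0.878 and 4.37 ± 0.983, a level not separated from hbae5 by the spread.

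Most genes of the set were high and low in the same pools, with the clearest exception in SLC4A1 ENSDARG00000024560, which had one of its lowest values in elmo2-/- replicate 6. The globin hbae5 followed in part, with a correlation of r = 0.69 with hbae1.3, 0.76 with hbae3 and 0.59 with alas2. With SLC4A1 ENSDARG00000012881 and gata1a, its r was 0.35 and 0.48. Averaged over the 7 tested identifiers, the log2 CPM was above the gene's mean by 0.56 in elmo2-/- replicate 1, by 0.58 in replicate 3 and by 0.40 in replicate 6, and by 0.51 in elmo2+/+ replicate 4 and 0.29 in elmo2+/+ replicate 1. It was lowest in elmo2+/+ replicate 5, at -0.76, elmo2+/+ replicate 3, at -0.55, and elmo2-/- replicate 4, at -0.46. Next came elmo2+/+ replicates 6 and 2, at -0.41 and -0.29, and then elmo2-/- replicates 2 and 5, at -0.041 and 0.15. High and low pools thus occurred in both genotypes.

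**Figure D4:**
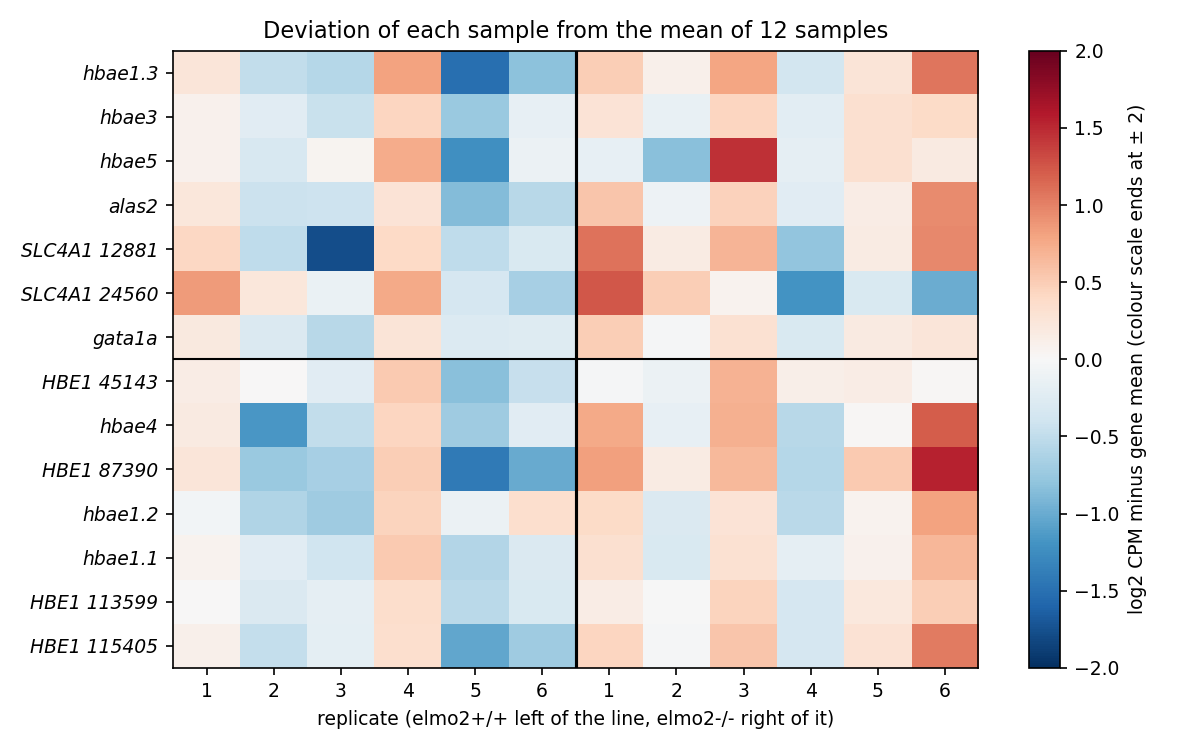
Deviation of log2 CPM from the gene's mean over 12 samples, for the 7 tested identifiers of the set (above the horizontal line) and 7 other tested alpha and beta globins (below it), with elmo2+/+ replicates left and elmo2-/- replicates right of the vertical line. Red is above and blue below the mean, and elmo2+/+ replicate 5 is low and elmo2-/- replicate 6 high for most globins and alas2. SLC4A1 ENSDARG00000024560 differs from hbae1.3 and alas2 in the order of samples mainly among the elmo2-/- replicates.

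To compare the roles, 9 pairs among hbae1.3, alas2, gata1a and the SLC4A1 identifiers were correlated over the 12 samples on log2 CPM, with permutation tests of 100000 resamples (two-sided) and Benjamini-Hochberg adjustment over the 9 pairs. The globin hbae1.3 and the heme enzyme gene alas2 had r = 0.96 and rho = 0.96 (permutation p = 1e-05 for r, the smallest these resamples can give, adjusted 4.5e-05). The relation was also seen within elmo2-/- (r = 0.95) and within elmo2+/+ (r = 0.98), and r was 0.94 without the 2 samples farthest from the median. SLC4A1 (ENSDARG00000012881) and gata1a had r = 0.95 and rho = 0.95 (permutation p = 1e-05, adjusted 4.5e-05), with r = 0.94 within each genotype and 0.95 without the 2 farthest samples.

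The relations between these couples were looser. For alas2 and gata1a r was 0.85 and rho 0.83 (permutation p = 0.00067, adjusted 0.00201), and r was 0.94 without the 2 farthest samples. For hbae1.3 and gata1a r was 0.82 and rho 0.81 (permutation p = 0.00139, adjusted 0.00252). For alas2 and SLC4A1 (ENSDARG00000012881) r was 0.80 and rho 0.87 (permutation p = 0.0014, adjusted 0.00252), and for hbae1.3 and that identifier r was 0.75 and rho 0.81 (permutation p = 0.00462, adjusted 0.00693), with r = 0.56 within elmo2+/+. The SLC4A1 identifier ENSDARG00000024560 had r = 0.29 with hbae1.3, r = 0.23 with alas2 and r = 0.49 with gata1a (permutation p = 0.355, 0.465 and 0.105). Its rho was 0.29, 0.34 and 0.50. Within elmo2+/+ these pairs had r = 0.86, 0.90 and 0.78, and within elmo2-/- r = 0.12, 0.090 and 0.61, a difference that was not tested. Over all 21 pairs of tested identifiers r lay between 0.084 and 0.96, with a median of 0.75, and 13 pairs exceeded 0.5. Among tested genes outside the set, r exceeded 0.5 for 7.93% with hbae1.3, 6.03% with alas2 and 8.3% with gata1a. It did so for 4.45% with SLC4A1 ENSDARG00000012881 and for 24.7% with ENSDARG00000024560. Samples of 1 library each share depth and composition, and a correlation between genes of the same samples is a description of these pools.

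**Figure D5:**
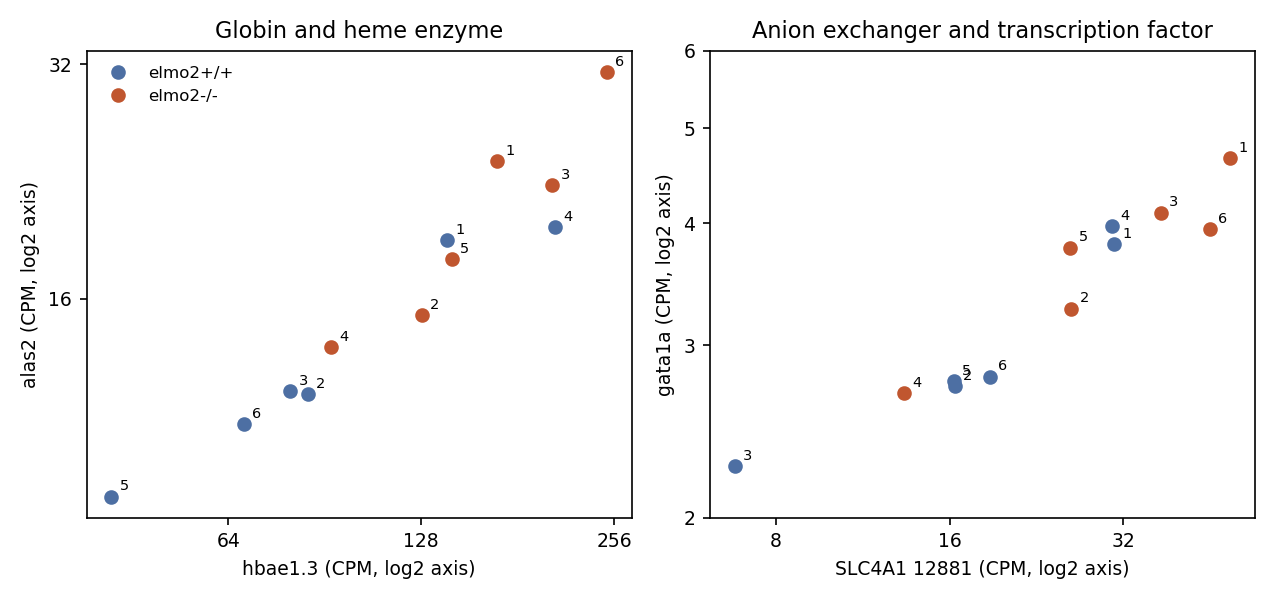
CPM of hbae1.3 against alas2 (left) and of SLC4A1 ENSDARG00000012881 against gata1a (right) in the 12 samples, both axes on a log2 scale, with elmo2+/+ in blue, elmo2-/- in orange and replicate numbers beside the points. Both genotypes lie along the same line, with r = 0.96 on the left and r = 0.95 on the right.

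Among the 22252 tested genes outside the set, those most like hbae1.3 across the 12 samples were 3 HBE1 identifiers, ENSDARG00000115405, ENSDARG00000087390 and ENSDARG00000113599 (r = 0.97, 0.96 and 0.96). Closest to alas2 were ENSDARG00000087390 and ENSDARG00000115405 (both r = 0.98), followed by cahz, a carbonic anhydrase gene of zebrafish red cells (r = 0.96). The genes most like SLC4A1 ENSDARG00000012881 were epb41b, which encodes a protein 4.1 of the membrane skeleton, klf1, a Krüppel-like factor gene, and blf, a zinc finger gene (r = 0.95, 0.93 and 0.91). For gata1a they were epb41b, klf1 and NMT1, an N-myristoyltransferase gene (r = 0.96, 0.94 and 0.92). An r above 0.8 was rare for these anchors, found for 0.171% of genes with hbae1.3, 0.112% with alas2, 0.0899% with SLC4A1 ENSDARG00000012881 and 0.135% with gata1a.

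The SLC4A1 identifier ENSDARG00000024560 was most like meis1a, a homeobox gene, notch2, a Notch receptor gene, and ehd4, a membrane trafficking gene (r = 0.98, 0.98 and 0.97). An r above 0.8 with it was found for 6.85% of all genes.

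The other genes of red cell formation were described from lists compiled by name, in which DESeq2 and limma likewise called 0 genes. In RNA of whole larvae, other cells can add to these genes, and the part of red cells in their values was not tested. Of 20 tested genes of heme synthesis and mitochondrial iron import, 0 were called, and 2 had an unadjusted p under 0.05 with a higher level in elmo2-/- and 1 with a lower level. Among the former was uros, which encodes an enzyme of heme synthesis, with a log2 fold change of 0.21 (standard error 0.073). The gene with a lower level was ALAS1, the counterpart of alas2 outside red cells, with a log2 fold change of -0.24 (standard error 0.11). It was outside the rule for naming and was picked after its values were seen. In CPM, ALAS1 ranged from 206 to 276 in elmo2-/- and from 207 to 311 in elmo2+/+, and uros from 18.2 to 21.9 and from 15.6 to 18.7. For these and the following lists the shares over all genes were 4.68% with an unadjusted p under 0.05 and 49.8% with a higher fitted level in elmo2-/-. In the heme list 15 of the 20 had a higher fitted level, with a median log2 fold change of 0.080.

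Of 14 tested genes of iron uptake and storage, 0 were called, 1 had an unadjusted p under 0.05, 7 had higher and 7 lower fitted levels, with a median log2 fold change of -3.1e-05. The smallest unadjusted p values belonged to tfr1b, a transferrin receptor gene, with a log2 fold change of -0.27 (standard error 0.12), and fth1a, a ferritin heavy chain gene, with 0.11 (standard error 0.074). Of 21 tested genes of erythroid transcription and signalling, 0 were called, 1 had an unadjusted p under 0.05, 10 had higher and 11 lower fitted levels, and the median was -0.0074. The 22 identifiers of that list summed to 408 to 456 CPM in elmo2-/- and 410 to 448 CPM in elmo2+/+. For gata1a alone the CPM was 2.68 to 4.66 and 2.26 to 3.97. EPOR, the erythropoietin receptor gene, was at 1.14 to 2.56 CPM in elmo2-/- and 0.983 to 1.28 CPM in elmo2+/+, with a log2 fold change of 0.50 (standard error 0.20), and for klf1 it was 0.38 (standard error 0.21). Of 20 tested genes of the red cell membrane and red cell enzymes, 0 were called, 1 had an unadjusted p under 0.05, 11 had higher and 9 lower fitted levels, and the median was 0.0093. ANK1 (ENSDARG00000059093), whose ankyrin product ties band 3 to the membrane skeleton, had a log2 fold change of -0.14 (standard error 0.062), and NT5C3A, a red cell nucleotidase gene, had 0.13 (standard error 0.063).

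Markers of other cells in the blood and of the vessel wall were read beside these values. Of 12 tested markers of other blood cells, 0 were called, 2 had an unadjusted p under 0.05, 6 had higher and 6 lower fitted levels, and the 14 identifiers found summed to 68.4 to 118 CPM in elmo2-/- and 71.2 to 102 CPM in elmo2+/+. The lysozyme gene lyz and the macrophage receptor gene csf1ra had log2 fold changes of -0.34 and -0.52 (standard errors 0.13 and 0.24), while the median over the list was -0.025. Of 7 tested endothelial genes, 0 were called, 0 had an unadjusted p under 0.05, 1 had a higher and 6 lower fitted levels, and they summed to 149 to 255 CPM in elmo2-/- and 155 to 244 CPM in elmo2+/+. EGFL7 and TIE1 had log2 fold changes of -0.27 and -0.16 (standard errors 0.13 and 0.14). The part of these cells in the values of the red cell genes was not tested.

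The number of genes of the set with an unadjusted p under 0.05 depended on single pools. It was 5 of 7 without elmo2-/- replicate 4 (3.99% of all genes in that fit) and without elmo2+/+ replicate 4 (5.2%), 4 without elmo2+/+ replicate 1 (4.63%) and 0 without elmo2-/- replicate 6 (4.09%), whereas 0 were called after adjustment each time. In comparisons added after the data were seen, the elmo2-/- pools of library numbers 13 to 16 had a median log2 fold change of 0.20 against elmo2+/+ replicates 1 to 4, and those of library numbers 7 and 8 had 0.81 against elmo2+/+ replicates 5 and 6. Without adjustment, 0 and 5 of the 7 genes had a p under 0.05 in these comparisons, where 2.88% and 11.4% of all genes did, and 0 were called after adjustment in either.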

How the data were processed

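RNA of 12 samples, 6 per genotype, was sequenced on a BGISEQ-500. For each sample the authors deposited estimated counts per gene, not all of them whole and none scaled across samples, and the authors deposited TPM, scaled to the same total after taking transcript length into account. The submitters' processing notes name Trim Galore 0.6.4, kallisto 0.4.6 and the genome build GRCz11, without role or order. A table of names gave symbols for 29201 of 32520 identifiers. The RefSeq table (GRCz12tu) was used for names and neighbours only.

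Estimated counts were rounded and tested with edgeR 4.0.16 in R 4.3.3 (filterByExpr with a minimum count of 10, TMM, quasi-likelihood test, genotype only, Benjamini-Hochberg over 22259 genes). The common biological coefficient of variation was 0.171. Standard errors were taken as |log2 fold change| over the square root of the F statistic. Exact permutation tests took all 924 ways to choose 6 of 12 samples. Correlations used log2 CPM with a prior count of 2, and SciPy 1.17.1. The code of the edgeR, DESeq2 and limma fits was tested on simulated data.

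Alternatives were DESeq2 1.42.0, limma 3.58.1 on log2(TPM + 1) or log2(TPM + 0.1), RLE factors or library size only, other filters (1 count in any sample, 1 CPM in 6 samples), scaling without globin counts, leaving out each sample, subsets of library numbers, and the replicate block. Subsets against same-numbered elmo2+/+ samples, and the HBE1 identifiers, were added after the data were seen. The members and lists were chosen with earlier results of these data known. From each list the 2 genes with the smallest unadjusted p were named where none was called, and for each of hbae1.3, alas2, gata1a and SLC4A1 the 3 genes with the highest r. A gene that this rule would name is not reported here. The correlations were planned for 6 pairs and run on 9, since SLC4A1 names 2 identifiers.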

Additional observations from a re-analysis of the deposited data

Results flagged for a closer look

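Of 34 groups of 6 samples examined for a pool far from the others (CPM of the genes described above, by genotype), 2 held one, both times elmo2-/- replicate 3. Chance gives this in about 1 in 20 groups. In that pool hbae5 was at 3.79 CPM, against up to 1.72 CPM in the other elmo2-/- pools, and the HBE1 identifier ENSDARG00000045143 was at 152 CPM.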

How the results depend on the processing

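Under all 25 alternatives 0 of the 7 tested genes of the set were called, and hbae1.3, hbae3, alas2, gata1a and SLC4A1 ENSDARG00000012881 kept a higher level in elmo2-/-, with log2 fold changes of 0.11 to 1.84. The value of 1.84 was that of hbae1.3 for library numbers 7 and 8 against elmo2+/+ replicates 5 and 6. In these elmo2+/+ pools hbae1.2 exceeded hbae1.3. Over all genes, 3 were called with DESeq2, 1 with limma on either TPM scale and 2 for library numbers 7 and 8 against elmo2+/+ replicates 5 and 6, where the median log2 fold change of the set was 0.81. The cause of that shift was not tested. Leaving out 1 sample gave 0 called genes each time and a median of 0.27 to 0.54, a summed globin ratio of 1.22 to 1.42, and log2 fold changes of -0.071 to 0.54 for hbae5, negative without elmo2-/- replicate 3, and -0.47 to 0.082 for SLC4A1 ENSDARG00000024560. The latter was 0.17 for library numbers 13 to 16 against all elmo2+/+ samples. Same-numbered samples deviated together in some numbers only (r across genes of -0.25 for replicate 4 to 0.62 for replicate 1), and nothing says that they were collected together. With the replicate block, 1445 genes in place of 1041 had an unadjusted p under 0.05, 0 in place of 0 were called, and 2 in place of 1 genes of the set had an unadjusted p under 0.05, with a median of 0.36. Over the 6 differences of same-numbered samples (replicate block), 4 correlations kept an r of 0.76 to 0.88 but no longer passed 0.05 with 6 values. For SLC4A1 ENSDARG00000024560 and gata1a, r was 0.73 on log2(TPM + 1) and 0.66 on deviations from the genotype mean, both passing 0.05 where 0.49 did not. The counts behind hbbe3, and the split between hbae1.2 and hbae1.3, limit what these libraries can show.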
